A study of Mus musculus with 12 samples.

Results

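Mouse embryonic stem cells that lack Dicer, the ribonuclease that cuts precursor RNAs into microRNAs, were carried as 2 separate cultures, the clones 27G5 and 27H10. From each clone came 1 line labelled as overexpressing Dnmt1 and 1 line labelled as overexpressing Dnmt3a,3b, and each line was hybridised against its own Dicer-null parent. The comparison described here sets the 4 arrays of clone 27G5 against the 4 arrays of clone 27H10, which are 8 of the 12 arrays of the series, and asks which genes responded differently in the 2 clones. A gene was kept when the response in 27G5 minus the response in 27H10 had the same sign in both dye orientations of both conditions and reached a mean of at least 1 on the log2 scale (2-fold) in each condition. This fold rule held for 232 of 19267 genes tested, 176 of them higher in 27G5 (0.913% of the genes tested) and 56 lower in 27G5 (0.291%).

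Dnmt1 is the maintenance DNA methyltransferase that copies methylation onto newly replicated DNA, and Dnmt3a and Dnmt3b set new methylation marks. In mouse embryonic stem cells microRNAs of the miR-290 cluster restrain repressors of the Dnmt3 genes, so that cells without Dicer are known for lowered levels of these enzymes. DNA methylation in these cells is best known for silencing germline genes, genes of the extraembryonic lineages and endogenous retroviruses.

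All cells were grown on gelatin with leukemia inhibitory factor, and every RNA in the 8 arrays, parent or line, was Dicer-null. RNA was labelled with Cy3 or Cy5, and each pair of RNAs was hybridised on 2 arrays with the dyes exchanged, so the 2 arrays of a pair are technical copies and the 8 arrays hold 4 ratios. Each clone contributes 1 parent culture and 1 line per condition, and the same parent RNA stands in the denominator of both conditions of its clone. The 2 ratios of a clone are therefore not independent, and an error in a parent RNA enters the clone difference without entering the spread it is tested against. The 4 arrays of 27G5 were on 1 slide and the 4 of 27H10 on another, so clone and slide cannot be told apart, and p-values measure only the spread between these samples. The share of spots well above background lay between 62.5% and 68.4% in each channel of the 8 arrays. The labels name neither the promoter nor the vector behind the overexpression and do not say how a line was selected.

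The methyltransferase transcripts themselves did not separate the lines as labelled. Dnmt1 read 0.17 and 0.06 (log2 over the parent) on the 2 arrays of the Dnmt1-labelled line of 27G5, and 0.66 and 0.19 on those of 27H10. In the Dnmt3a,3b-labelled lines the same probe read 0.60 and 0.04 for 27G5 and 0.41 and 0.02 for 27H10. Within each clone the ranges of the 2 lines overlapped, and in the Dnmt1-labelled lines both arrays of 27H10 were above both of 27G5. Its clone difference was -0.10 ± 0.229 (SE, limma adjusted p = 0.94 with Benjamini-Hochberg adjustment over all genes tested).

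Dnmt3a was below its parent on all 8 arrays, and more so in 27H10. It read -0.91 and -1.01 in the Dnmt1-labelled line of 27G5 against -1.71 and -1.95 in that of 27H10. In the Dnmt3a,3b-labelled lines it read -0.01 and -0.76 in 27G5 against -1.59 and -1.89 in 27H10. Its clone difference of 1.11 ± 0.233 (SE) missed the threshold (limma adjusted p = 0.0608), and of its other 2 measured probes 1 gave a mean clone difference of 1.00 and 1 gave -0.28, so the probes disagree.

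Dnmt3b was also below its parent in each line, with means of -1.34 and -1.47 in the Dnmt1-labelled and the Dnmt3a,3b-labelled line of 27G5 and of -0.77 and -0.61 in those of 27H10 (clone difference -0.71 ± 0.224 SE, limma adjusted p = 0.188). Dnmt3l, the catalytically inactive partner of the Dnmt3 enzymes, had a clone difference of -0.14 (adjusted p = 0.9, limma), and its probe was saturated in 5 channel readings. Dicer1 had one of -0.01 (adjusted p = 0.996, limma). Whether these probes lie in the introduced or the deleted sequence is not given in the sources used here, so the values do not check the labels, and the lines are named below by their labels only.

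In the model fitted over all genes (limma, clone and condition as terms, the 4 ratios), 264 genes passed an adjusted p under 0.05, 200 with a higher response in 27G5 (1.04% of the genes tested) and 64 with a lower one (0.332%). Of the 232 genes of the fold rule, 222 were among them, which the choice by size and sign favours. The counts rest on the deposited log2 ratios: with the scanner signals corrected by normexp with an offset of 50 and loess, 0 genes passed in limma (2420 at an unadjusted p under 0.05) and 44 genes met the fold rule, 42 of them from the 232. A fit that adds the 2 ratios of the parents to wild type also called 0 genes (2705 unadjusted). Its clone term leaves out those 2 ratios, so a difference between the parents counts as spread there and can lower the calls. Of the 232 genes, 101 had at least 1 RNA that was not above background on any array; for such genes the size of the clone difference rests on background readings, and bounds are given below in its place. A probe was tested if at least 1 RNA was well above background on all its arrays. Some dim genes therefore entered only through the clone with the higher response, which favours their calls. All 232 kept the sign of their mean clone difference under the normexp correction.

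**Figure D1:**
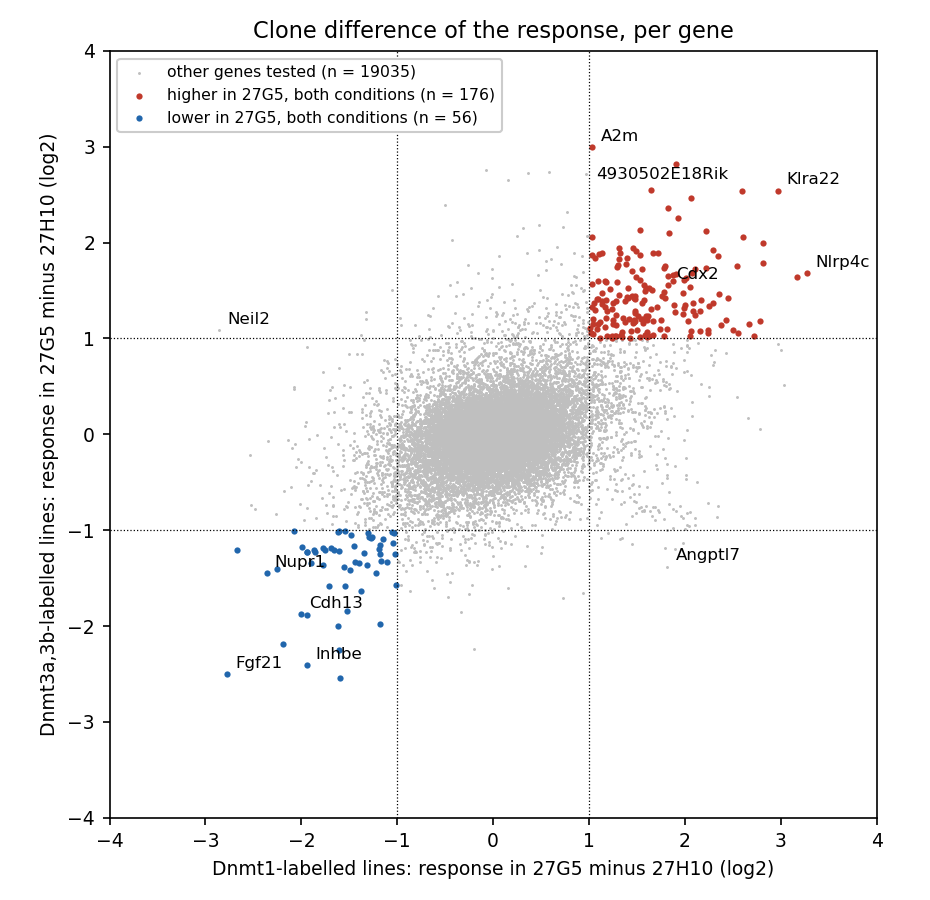
Each point is 1 of the 19267 genes tested, placed by the response in 27G5 minus the response in 27H10 (log2) in the Dnmt1-labelled lines (x axis) and in the Dnmt3a,3b-labelled lines (y axis), each the mean of 2 dye orientations. Dotted lines mark 1 and -1, and coloured points are the 176 genes higher and the 56 genes lower in 27G5 by the fold rule. Both axes share the same 2 parent RNAs, which bears on the spread along the diagonal.

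Responses of both clones contributed to the differences. Over the 176 genes higher in 27G5, the median response was 0.61 in the Dnmt1-labelled and 0.41 in the Dnmt3a,3b-labelled line of 27G5, against -1.03 and -0.91 in 27H10. Over the 56 genes lower in 27G5, the medians were -0.55 and -0.43 in 27G5 against 1.03 and 0.83 in 27H10. These medians describe the genes chosen and carry no test.

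By the size of the response in each clone, 22 of the 176 were at least 2-fold above the parent in both lines of 27G5 with less than 0.5 (log2) of change in both lines of 27H10, and 20 were at least 2-fold below the parent in 27H10 with little change in 27G5. In the other direction, 9 of the 56 were at least 2-fold above the parent in 27H10 alone and 6 at least 2-fold below it in 27G5 alone. In 29 further genes both clones moved at least 2-fold the same way by different amounts (9 and 17 of the genes higher in 27G5 were above and below the parent, and 2 and 1 of those lower in 27G5). The other 108 and 38 genes met none of these patterns. No gene, of all 19267 tested, was at least 2-fold above the parent in both lines of 1 clone and at least 2-fold below it in both lines of the other.

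Among genes with every RNA measured, the lowest clone difference was that of Inhbe (chr10:126851059-126851118, mouse build mm7, minus strand), which encodes the activin beta E subunit. It read -0.97 and -0.82 in the Dnmt1-labelled line of 27G5 and 0.95 and 1.13 in that of 27H10. In the Dnmt3a,3b-labelled lines it read -0.87 and -0.15 against 1.79 and 2.00. All 4 arrays of 27H10 were above the parent and all 4 of 27G5 below it, a clone difference of -2.17 ± 0.232 (SE), or 4.51-fold in the response (limma adjusted p = 0.0107).

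Fgf21 (chr7:41790029-41790088, mm7, minus strand), a hormone induced by fasting and by stress at the endoplasmic reticulum and mitochondria, had a lower response in 27G5 (limma adjusted p = 0.00536). It read 1.80 and 2.39 in the Dnmt1-labelled line and 2.25 and 2.55 in the Dnmt3a,3b-labelled line of 27H10. In 27G5 it read -0.99 and -0.36, and -0.75 and 0.55. The parent of 27H10 was too dim to measure on all 4 of its arrays while both arrays of each line were well above background, so on the single-channel scale Fgf21 was at least 1.56-fold higher than the parent in the Dnmt1-labelled and at least 1.56-fold higher in the Dnmt3a,3b-labelled line of 27H10. The Dnmt1-labelled line of 27G5 was not above background either, and another probe for Fgf21 had a clone difference of the same sign.

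Nupr1 (chr7:122720022-122720081, mm7), a small chromatin-bound stress protein, read 1.57 and 1.84 in the Dnmt1-labelled line of 27H10 and -0.75 and -0.56 in that of 27G5. In the Dnmt3a,3b-labelled lines it read 1.81 and 1.97 against 0.21 and 0.67 (clone difference -1.91 ± 0.266 SE, limma adjusted p = 0.0171). Aldh1l2 (chr10:83029335-83029394, mm7), the mitochondrial enzyme that oxidises formyl-tetrahydrofolate, read 1.88 and 2.15 in 27H10 against -0.42 and -0.05 in 27G5 in the Dnmt1-labelled lines, and 1.5 and 1.66 against 0.24 and 0.10 in the Dnmt3a,3b-labelled lines. For both genes the 4 arrays of 27H10 lay above all 4 of 27G5, with Aldh1l2 changing little in 27G5 (clone difference -1.83 ± 0.26 SE, limma adjusted p = 0.0171). A second Aldh1l2 probe gave a mean of -0.80 and kept the direction, but with -1.42 in the Dnmt1 and only -0.19 in the Dnmt3a,3b condition.

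Promoters of 4 genes with a lower response are shown because they hold a motif that was searched for: amino acid and stress response genes are known to carry a C/EBP-ATF element bound by the factor ATF4. The sequences are the 250 bases before the start in RefSeq's GRCm38.p6, read 5′ to 3′ on the gene's strand, and capitals mark TGATGNAA or its reverse complement TTNCATCA, the core of that element.
Fgf21, chr7:45615491-45615740, minus strand: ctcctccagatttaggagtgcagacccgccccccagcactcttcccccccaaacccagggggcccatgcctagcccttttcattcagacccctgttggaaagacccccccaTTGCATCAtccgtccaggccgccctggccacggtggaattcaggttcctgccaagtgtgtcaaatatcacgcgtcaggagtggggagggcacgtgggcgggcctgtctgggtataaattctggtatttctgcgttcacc
Inhbe, chr10:127351849-127352098, minus strand: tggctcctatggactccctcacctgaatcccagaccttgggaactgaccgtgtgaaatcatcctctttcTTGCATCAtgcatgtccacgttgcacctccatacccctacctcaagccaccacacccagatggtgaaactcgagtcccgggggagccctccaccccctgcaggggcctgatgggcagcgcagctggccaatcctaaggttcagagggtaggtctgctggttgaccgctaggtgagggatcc
Nupr1, chr7:126625471-126625720, minus strand: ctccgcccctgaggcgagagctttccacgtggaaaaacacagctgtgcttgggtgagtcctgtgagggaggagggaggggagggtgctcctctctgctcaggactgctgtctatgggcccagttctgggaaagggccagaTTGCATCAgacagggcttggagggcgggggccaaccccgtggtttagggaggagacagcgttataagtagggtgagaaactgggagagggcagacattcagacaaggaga
Gna14, chr19:16435417-16435666, plus strand: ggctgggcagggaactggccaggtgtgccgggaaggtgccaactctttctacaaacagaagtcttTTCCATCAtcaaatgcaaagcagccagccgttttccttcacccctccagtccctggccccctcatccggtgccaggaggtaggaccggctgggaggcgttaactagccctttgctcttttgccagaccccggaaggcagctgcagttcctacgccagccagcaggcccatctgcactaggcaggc
No promoter of Aldh1l2 was in the table. The motif, on either strand, was in 244 of 11397 promoters of genes tested (2.14%). Of the 19 genes of the fold rule named here that were lower in 27G5, 11 had a promoter in the table and the 4 shown held the motif. Of the 26 named genes that were higher in 27G5, 18 had a promoter in the table and 0 held it. Over the whole fold rule, 7 of 113 promoters of genes higher in 27G5 and 5 of 30 of genes lower in 27G5 held it. With promoters for 143 of the 232 genes, too few of each set could be searched, so a comparison of these shares is void. A match is a stretch of letters and not evidence of a bound site.

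The list of amino acid stress response genes, made with earlier results of these data known, had a median clone difference of -0.50 over its 22 measured genes (-0.47 in the Dnmt1 and -0.24 in the Dnmt3a,3b condition), against 0.01 over all genes tested, and 17 of the 22 were below 0. In limma 2 of the 22 were called lower in 27G5 and 0 higher, against 0.332% and 1.04% of all genes tested, and 1, Vldlr, also met the fold rule. Gpt2, the mitochondrial alanine aminotransferase, read 1.91 and 1.61 in the Dnmt1-labelled line of 27H10 and 0.01 and -0.07 in that of 27G5. In the Dnmt3a,3b-labelled lines it read 1.79 and 1.5 against 0.97 and 0.34 (clone difference -1.39 ± 0.256 SE, limma adjusted p = 0.0387).

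Vldlr, a lipoprotein receptor, was above the parent in both clones and further above it in 27H10. It read 2.04 and 3.23 against 1.07 and 1.86 for 27G5 in the Dnmt1-labelled lines, and 2.07 and 2.98 against 0.45 and 1.95 in the Dnmt3a,3b-labelled lines (clone difference -1.25 ± 0.221 SE, limma adjusted p = 0.0339). The enzymes of serine synthesis had values on the same side without passing the test, with clone differences of -0.99 for Psat1, -0.79 for Psph and -0.70 for Phgdh (limma adjusted p = 0.124, 0.134 and 0.258). Atf4, which encodes the factor itself, had one of -0.45 (limma adjusted p = 0.448), and Ddit3, another factor of the response, was about equally above its parents in both clones at -0.14 (limma adjusted p = 0.902). Of the 18 list genes with a promoter in the table, 4 held the motif above.

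**Figure D2:**
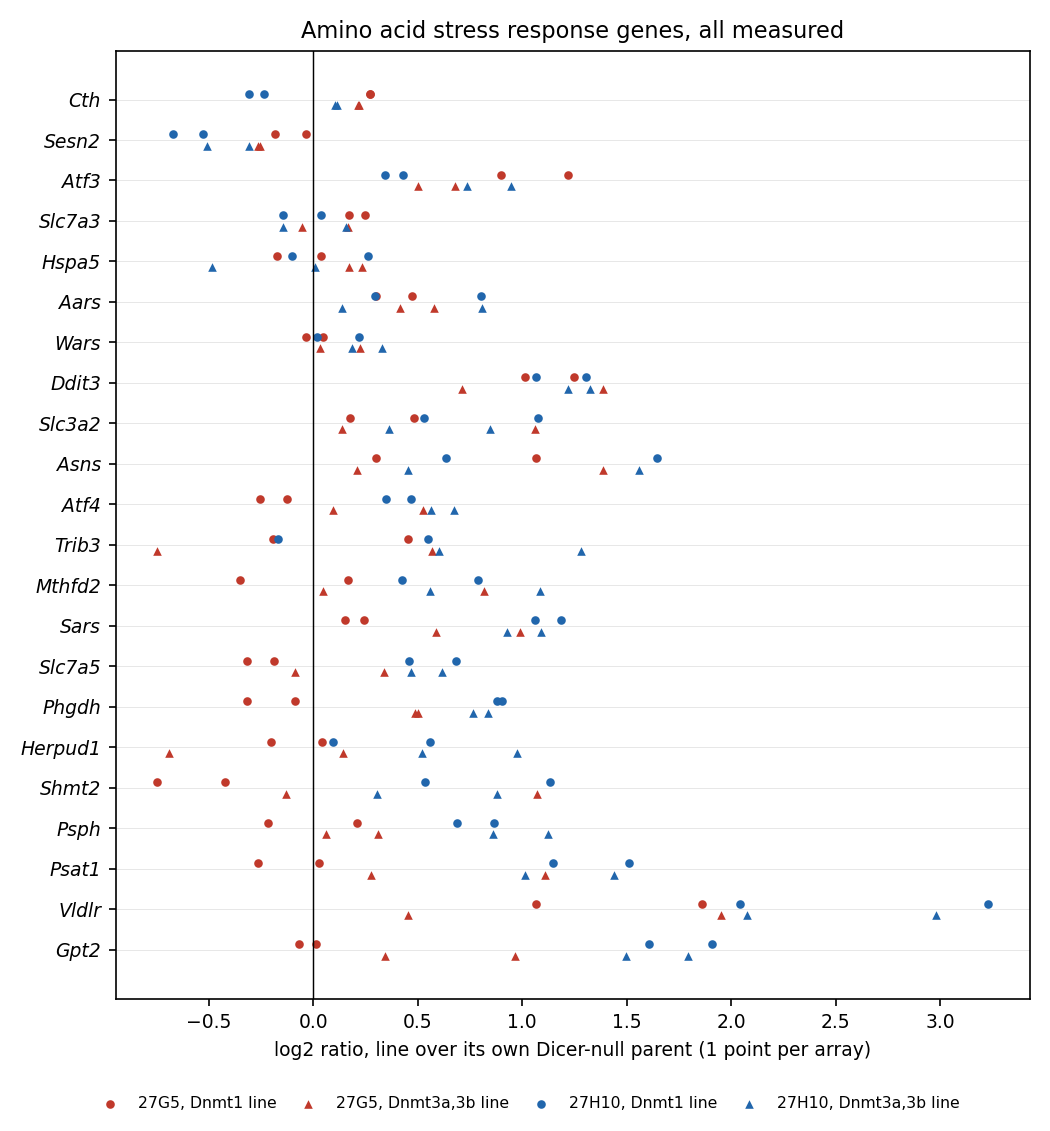
Log2 ratio of each line over its own Dicer-null parent for the 22 measured amino acid stress response genes, 1 point per array (2 arrays per line), circles for Dnmt1-labelled and triangles for Dnmt3a,3b-labelled lines, red for 27G5 and blue for 27H10. Gpt2 and Vldlr, the lowest 2 rows, are the genes called by limma, and in Gpt2 all 4 arrays of 27H10 (1.5 to 1.91) lay above the 4 of 27G5 (-0.07 to 0.97).

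Cdh13, a cadherin anchored by a lipid tail, changed less in 27H10 than in 27G5, and read -2.17 and -2.60 in the Dnmt1-labelled and -2.44 and -2.61 in the Dnmt3a,3b-labelled line of 27G5, against -0.24, -0.51, -0.61 and -0.68 in 27H10 (clone difference -1.94 ± 0.22 SE, limma adjusted p = 0.0112). The transcript C230043N17Rik had the same pattern, between -2.29 and -1.75 on the 4 arrays of 27G5 and between -0.32 and 0.17 on those of 27H10 (limma adjusted p = 0.0132). Prom2, a membrane protein of epithelial protrusions, read 1.28, 1.17, 1.31 and 1.13 in 27H10 and -0.58, -0.52, -0.15 and -0.15 in 27G5 (clone difference -1.57 ± 0.229 SE, limma adjusted p = 0.0186).

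Cpe, the carboxypeptidase that trims peptide hormones, read 1.39, 1.17, 1.27 and 0.89 in 27H10 and -0.23, -0.64, -0.22 and -0.79 in 27G5 (clone difference -1.65 ± 0.22 SE, limma adjusted p = 0.016). Gna14, a G protein alpha subunit, Cyp39a1, an oxysterol hydroxylase, and Col26a1, a collagen, were likewise above the parent on all arrays of 27H10 and below it on all of 27G5, with clone differences of -1.59, -1.54 and -1.56 (limma adjusted p = 0.0227, 0.0245 and 0.0171). Hspb6, a small heat shock protein, had one of -1.54 (limma adjusted p = 0.0376). Msln, the mesothelial surface protein mesothelin, had one of -1.58 with its probe saturated in 2 channel readings (limma adjusted p = 0.0251).

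Among genes not well above background in every RNA, Tmem154, a membrane protein, was below the 27G5 parent by at least 1.1-fold in the Dnmt1-labelled and at least 1.21-fold in the Dnmt3a,3b-labelled line, while the 27H10 lines read 0.21, 0.07, 0.48 and 0.07 (limma adjusted p = 0.00995 for the clone difference). Chl1, a neural adhesion molecule, was at least 1.55-fold and at least 1.8-fold lower than the parent in the 27G5 lines (limma adjusted p = 0.0149). In the 27H10 lines Chl1 also read below the parent, with means of -1.37 and -1.23. Lgals12, a galectin of fat cells, was at least 1.3-fold and at least 1.15-fold lower in the 27G5 lines (limma adjusted p = 0.0285). For both genes the 27H10 parent was well above background on only 1 of its 4 arrays, so the 27H10 responses were barely measured. Prl2b1, a placental prolactin-family hormone, was at least 1.29-fold and at least 1.27-fold higher than the parent in the 27H10 lines (limma adjusted p = 0.0191). Its probe was tested only because the 27H10 lines were above background, which favours this direction. Pkd1l3, a polycystin-like channel protein, was at least 1.21-fold higher in the Dnmt1-labelled line of 27H10, where its parent was not above background (limma adjusted p = 0.0113). That line was above background on 1 of 2 arrays. In the Dnmt3a,3b condition of 27H10 neither line nor parent was, so the response there was not measured. These bounds compare the brighter RNA with the lowest signal that was well above background or, where higher, with the dim RNA's own reading. They are smaller than the deposited ratios.

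The genes with a higher response in 27G5 included X-linked transcripts, chemokines and a keratin group. 4930502E18Rik (chrX:48832597-48832656, mm7) read 2.04 and 2.12 in the Dnmt1-labelled and 1.6 and 2.39 in the Dnmt3a,3b-labelled line of 27G5. In 27H10 it read -0.64, -0.38, -0.59 and -0.49. The groups lay on opposite sides of the parent, with a clone difference of 2.57 ± 0.219 (SE), or 5.92-fold (limma adjusted p = 0.00536).

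Its neighbour 1700013H16Rik, 4.76 kb away on the X chromosome, was above the parent in all 4 lines, at 5.63, 6.16, 4.32 and 5.68 in 27G5 and 3.42, 3.93, 2.87 and 3.68 in 27H10 (clone difference 1.98 ± 0.234 SE, limma adjusted p = 0.0131). Scml2, a Polycomb-group protein of the male germline, read 2.77, 2.85, 2.49 and 2.71 in 27G5 and 0.56, 0.63, 0.44 and 0.51 in 27H10. Its dye orientations agreed closely, and its clone difference was 2.17 ± 0.22 (SE, limma adjusted p = 0.00995), with 1.88 and 1.47 from its other 2 measured probes.

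Nlrp4c, of the NLR family expressed in oocytes, read 2.24 and 3.02 in the Dnmt1-labelled and 0.33 and 1.93 in the Dnmt3a,3b-labelled line of 27G5, against -1.11, -0.17, -1.02 and -0.09 in 27H10 (clone difference 2.48 ± 0.342 SE, limma adjusted p = 0.0171). It belongs to a family of close copies, so the probe may read more than 1 gene. The same limit holds for Klra22, a natural killer cell receptor of the Ly49 family, which had a higher response in 27G5 (limma adjusted p = 0.00536). Klra22 was not above background in either line of 27H10, where it was at least 1.14-fold and at least 1.21-fold lower than the parent.

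Chemokine genes stood in 2 pairs of neighbours on chromosome 5. Cxcl11, a ligand of the receptor CXCR3, read 0.42, 0.80, 0.27 and 0.88 in 27G5 and -1.08, -0.98, -2.14 and -1.82 in 27H10 (clone difference 2.10 ± 0.266 SE, limma adjusted p = 0.0132). Cxcl10, a ligand of the same receptor 14.3 kb away, had a clone difference of 1.80 (limma adjusted p = 0.0384) and was above the parent in all lines. Cxcl5, which attracts neutrophils, was at least 1.21-fold and at least 1.25-fold higher than the parent in the 27G5 lines and not above background in any RNA of 27H10. Its neighbour Pf4, platelet factor 4, lay 12.1 kb away, met the fold rule in the same direction and was likewise not above background in any RNA of 27H10. Cxcl10 and Pf4 were named after their values were seen, for their position.

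Krt28, a keratin of the hair follicle's inner root sheath, read 0.75, 1.08, 1.03 and 2.05 in 27G5 and -1.77, -0.98, -0.88 and 0.12 in 27H10 (clone difference 2.10 ± 0.227 SE, limma adjusted p = 0.0107). Its neighbours on chromosome 11, Krt27, Krt23 at 113 kb and Krt222, 112 kb from Krt27, also met the fold rule in the same direction, and were named for their position after their values were seen. Krt27 and Krt23 were not above background in either line of 27H10, and Krt222 had a clone difference of 1.21. Among the genes of the fold rule with a symbol and a position, 14 pairs next to each other lay within 200 kb, and 12 of the 14 had the same sign. With 176 of the 232 genes higher in 27G5, a shared sign is favoured in any pair. The keratin pairs also share members. How many such pairs to expect was not worked out, so neither count shows grouping of neighbours.

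Genes with a higher response in 27G5 also included some that were below the parent in 27H10. Trim36, a ubiquitin ligase, read -1.47, -1.87, -1.51 and -1.77 in 27H10 and 0.47, 0.34, 0.13 and -0.05 in 27G5 (clone difference 1.88 ± 0.228 SE, limma adjusted p = 0.0132). Spic, an Ets-family transcription factor, read -2.59, -1.82, -2.04 and -1.37 in 27H10 and -0.19, 0.36, -0.95 and 0.30 in 27G5 (clone difference 1.83 ± 0.267 SE, limma adjusted p = 0.0186). Rprm, a p53-inducible protein that arrests the cell cycle, read -2.13, -2.03, -1.46 and -0.93 in 27H10 and 0.48, 0.80, -0.51 and 0.16 in 27G5 (clone difference 1.87 ± 0.357 SE, limma adjusted p = 0.0448).

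Bhlhe23, a transcription factor, and Nckap5 were below the parent in both clones and further below in 27H10, with clone differences of 1.91 and 1.98 (limma adjusted p = 0.0131 and 0.0324). A2m, the protease inhibitor alpha-2-macroglobulin, differed most in the Dnmt3a,3b-labelled lines, at 1.28 and 0.24 in 27G5 against -1.95 and -2.52 in 27H10, and by 1.03 in the Dnmt1 condition (limma adjusted p = 0.0476). Another A2m probe had a clone difference of 1.95 in the Dnmt3a,3b and 0.34 in the Dnmt1 condition. Of the dimmer genes, BC053393 was at least 1.57-fold and at least 1.43-fold higher than the parent in the 27G5 lines and not above background in any RNA of 27H10. Adamts3, which cuts procollagen, was at least 1.51-fold and at least 1.64-fold lower than the parent in the 27H10 lines and at least 1.12-fold and at least 1.21-fold lower in those of 27G5 (limma adjusted p = 0.00995). Abi3bp, a matrix protein, was at least 1.38-fold and at least 1.43-fold lower in the 27H10 lines (limma adjusted p = 0.0112).

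**Figure D3:**
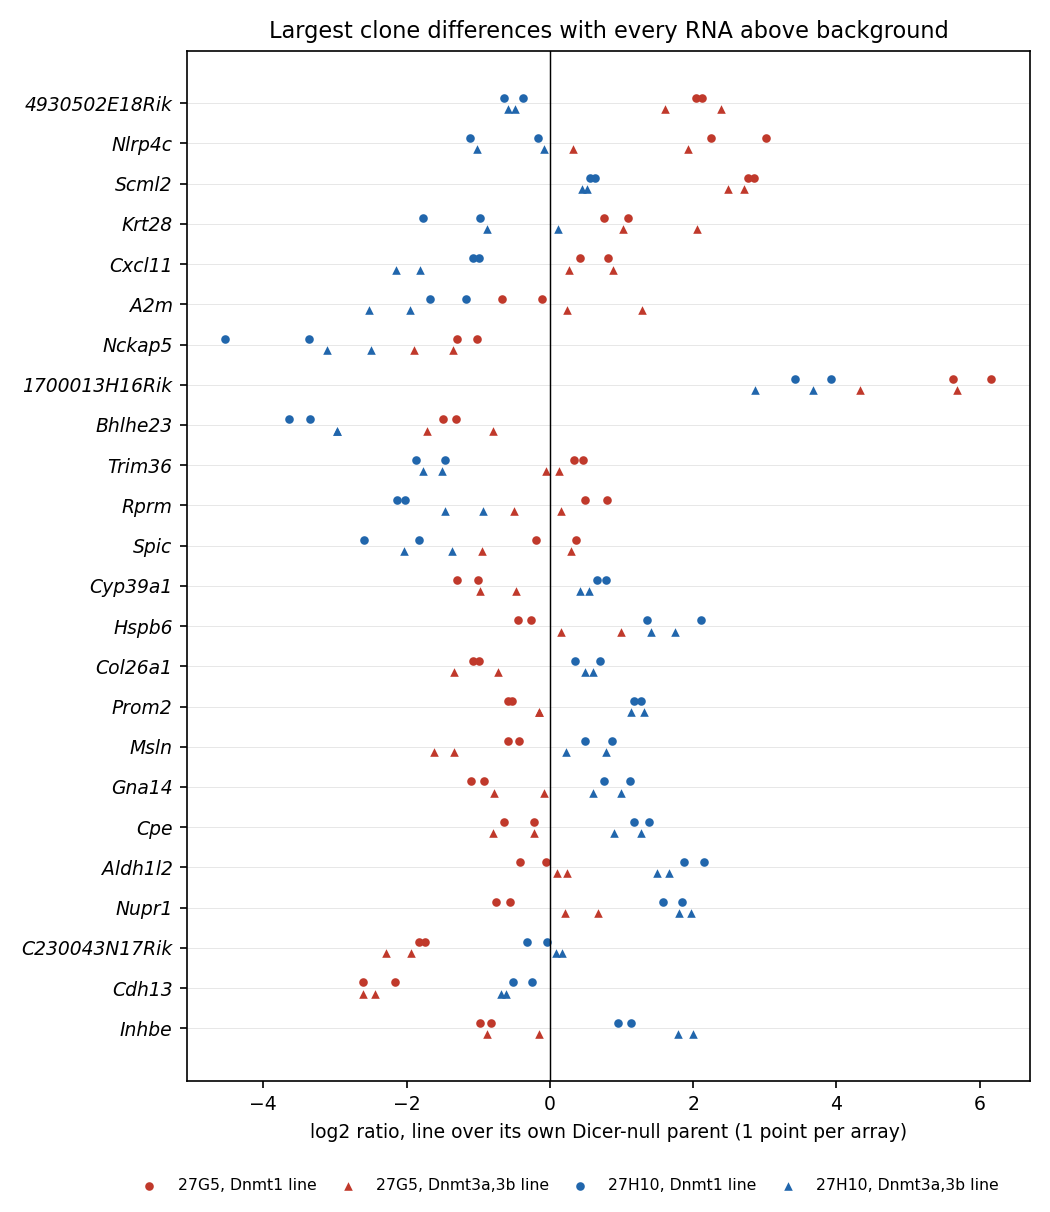
Log2 ratio of each line over its own parent for the 12 genes with the highest and the 12 with the lowest clone difference among genes of the fold rule with every RNA well above background, 1 point per array, circles for Dnmt1-labelled and triangles for Dnmt3a,3b-labelled lines, red for 27G5 and blue for 27H10. Red and blue points do not overlap in any row, as the fold rule favours, and 1700013H16Rik (2.87 to 6.16) is above the parent on all 8 arrays.

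The lists of lineage, germline and signalling genes held 7 genes of the fold rule, all higher in 27G5, the direction of 176 of all 232. Of 20 measured trophoblast markers 2 met the rule with a higher and 0 with a lower response, against 0.913% and 0.291% of all genes tested; Prl2b1, a placental hormone outside the list, was in the other direction. Cdx2, a transcription factor that specifies trophectoderm, read 3.13, 2.73, 3.87 and 3.38 in 27G5 and 0.99, 1.23, 2.39 and 1.75 in 27H10 (limma adjusted p = 0.0159). Cdx2 was above the parent in all 4 lines; the parent of 27G5 was too dim to measure on all 4 of its arrays, so its lines were at least 1.74-fold and at least 1.89-fold higher.

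Ctsq, a cathepsin of placental giant cells, was at least 1.91-fold and at least 1.88-fold higher than the parent in the 27G5 lines and at least 1.19-fold higher in the Dnmt3a,3b-labelled line of 27H10 (limma adjusted p = 0.0132). Ctsq was tested only because the 27G5 lines were above background, which favours a higher response there. The trophoblast list as a whole had a median clone difference of 0.19, with 0.38 in the Dnmt1 and 0.02 in the Dnmt3a,3b condition. Tpbpa, a marker of the spongiotrophoblast, was well above background on both arrays of each line and on none of either parent. Its clone difference had a limma adjusted p of 0.421.

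Of 24 measured germline genes, Asz1, a component of the piRNA pathway, met the rule, at 2.65, 2.76, 1.28 and 1.58 in 27G5 and 0.92, 0.01, 0.24 and 0.44 in 27H10 (clone difference 1.66 ± 0.291 SE, limma adjusted p = 0.0328). Sycp1, of the synaptonemal complex, was also called by limma with 1.18 (adjusted p = 0.0488). The list's median was 0.12, with 0.36 in the Dnmt1 and 0.09 in the Dnmt3a,3b condition.

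Signalling genes of the early embryo gave 4 of the 7, and their lists had medians of 0.21 (Nodal, BMP and LIF), 0.06 (miR-290 cluster targets) and 0.27 (mesoderm, 0.16 with normexp offset 50). Of 27 measured Nodal, BMP and LIF signalling genes, Msx2, a homeobox target of BMP, read 3.07, 2.95, 3.00 and 2.93 in 27G5 and 1.54, 1.54, 1.80 and 1.75 in 27H10 (clone difference 1.33 ± 0.224 SE, limma adjusted p = 0.0285). Id3, another BMP target, met the fold rule with 1.04 without passing in limma (adjusted p = 0.0618). Dkk1, a secreted Wnt antagonist and the only 1 of 19 measured miR-290 cluster targets past the rule, read 1.79, 1.75, 1.49 and 1.72 in 27G5 and 0.15, -0.12, 0.67 and 0.16 in 27H10 (clone difference 1.47 ± 0.238 SE, limma adjusted p = 0.0251). Wnt3, a Wnt ligand of the primitive streak and the 1 gene past the rule of 14 measured mesoderm markers, read 0.93, 0.54, 0.82 and -0.06 in 27G5 and -0.49, -1.16, -0.57 and -1.07 in 27H10 (clone difference 1.38 ± 0.227 SE, limma adjusted p = 0.0261).

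In the lists that follow no gene met the fold rule and none was called by limma. The 25 measured p53 target genes had the highest list median at 0.44 (0.53 in the Dnmt1 and 0.22 in the Dnmt3a,3b condition), and 23 of the 25 were above 0. The largest of them was Plk2, a kinase, at 1.04 (limma adjusted p = 0.191), followed by Ccng1, cyclin G1, at 0.94 (limma adjusted p = 0.09). The 8 measured Y-linked genes had the lowest median at -0.66, with 7 of the 8 below 0, as were 9256 of all 19267 genes tested. Of these Kdm5d, a histone demethylase, read -2.39, -2.75, -2.05 and -2.04 in 27G5 and -1.69, -1.71, -1.21 and -1.50 in 27H10, so it was below the parent in all lines and lower in 27G5 (clone difference -0.78, limma adjusted p = 0.147), and Uty, another demethylase-family gene, had the largest at -1.28 (limma adjusted p = 0.0594). By position, the 4 tested genes placed on the Y chromosome had smaller medians, -0.21 in the Dnmt1 and -0.15 in the Dnmt3a,3b condition. In bulk RNA, fewer cells carrying a transcript and less RNA per cell cannot be told apart.

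Medians of the remaining lists lay between -0.15 for cholesterol and fatty acid synthesis genes (26 measured, largest Srebf2, -0.71) and 0.21 for neuroectoderm and primed epiblast markers (14 measured, largest Fgf5, not above background in 1 line of 27H10). Primitive endoderm markers (20 measured) had a median of 0.17 and their largest was Afp, alpha-fetoprotein, which was not above background in any RNA of 27H10. The 8 measured 2-cell-stage genes had a median of 0.19 (Zscan4c, 0.74), the 29 imprinted genes 0.16 (Peg10, 0.96), and the 27 retinoblastoma family and G1/S regulators 0.12 (Cdkn2c, -0.64). For 23 pluripotency genes the median was 0.03 (Dppa3, 0.88), for 24 extracellular matrix and fibroblast markers 0.03 (Ccn1, 0.93) and for 27 replication and mitosis genes 0.05 (Kif11, -0.37). For 25 genes of the small RNA machinery it was 0.00 (Tnrc6b, 0.43), for 27 ribosomal protein genes -0.01 (Rpl6, -0.15), for 26 glycolysis and hypoxia genes -0.05 (Adm, 1.13) and for 32 interferon and MHC class I genes -0.06 (Ifit1, 1.02). With normexp offset 50 the medians were 0.05 for primitive endoderm markers, 0.02 for 2-cell-stage genes and 0.07 for imprinted genes. Several of these medians join conditions of opposite sign: that of glycolysis and hypoxia genes was -0.39 in the Dnmt1 and 0.39 in the Dnmt3a,3b condition. For cholesterol synthesis genes these were -0.32 and 0.09, and for interferon genes -0.22 and 0.14. For pluripotency genes they were -0.10 and 0.22, and for matrix and fibroblast markers -0.14 and 0.23. Those of primitive endoderm markers were -0.09 and 0.05, both below the joined median of 0.17. Imprinted genes had values of the same sign but unequal size, 0.27 and 0.05. None of the largest members named passed in limma. The fibroblast and lineage lists hold the markers of other cells that a culture of stem cells could contain.

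**Figure D4:**
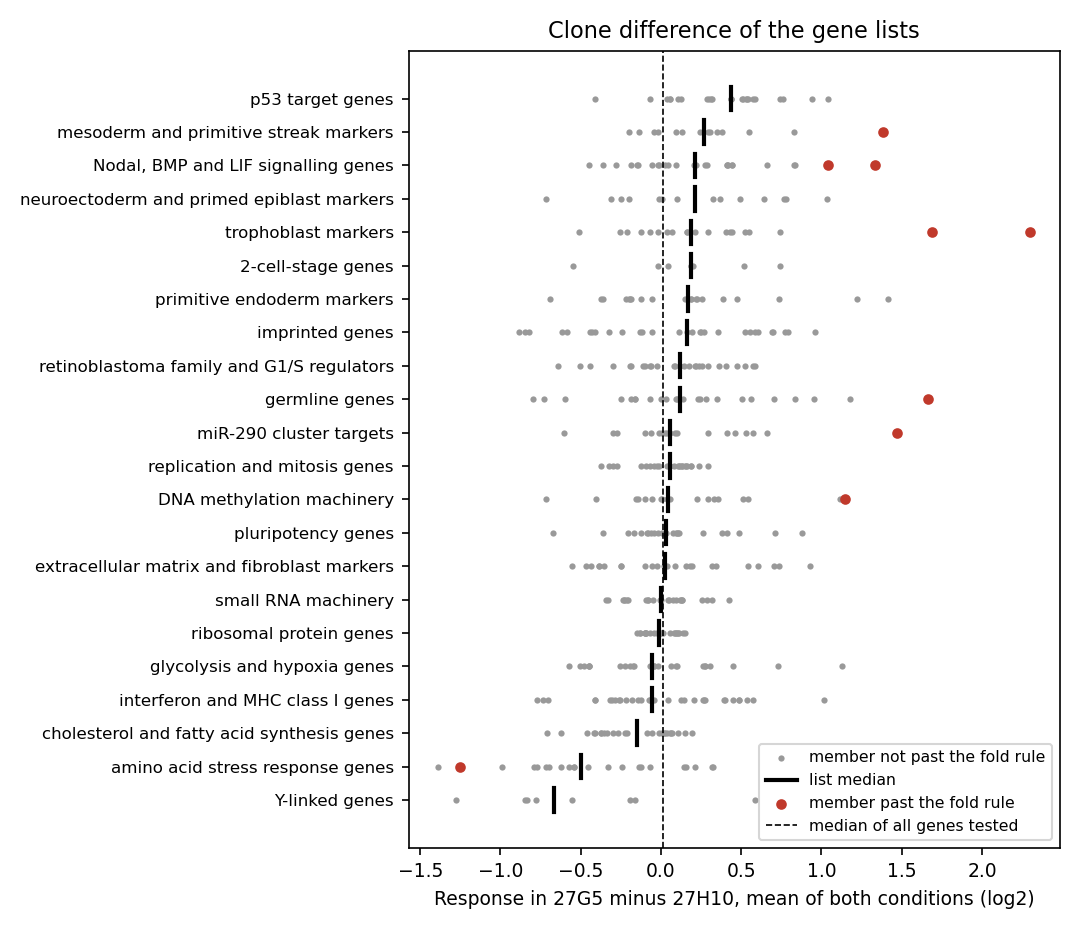
Response in 27G5 minus the response in 27H10 (log2, mean of both conditions) for every measured member of the 22 gene lists, with black bars at the list medians and a dashed line at the median of all genes tested (0.01). Red points are list members past the fold rule, and the medians run from -0.66 for Y-linked genes to 0.44 for p53 target genes.

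The share of genes that met the fold rule varied between chromosomes. The counts are small, and whether they differ from an even spread was not tested. On the X chromosome 16 of 688 genes tested met the rule with a higher response in 27G5 (2.33%) and 0 with a lower one, against 0.913% and 0.291% over all genes. The X chromosome held 3.64% of the genes with a position and 6.99% of those that met the rule. Chromosome 6 followed with 17 higher (1.74%) and 3 lower, and chromosome 19 had the largest share of genes lower in 27G5 with 6 of 656 (0.915%). Chromosome 4 had 2 higher and 1 lower of 1193 genes.

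Chromosome 6 also had the highest median clone difference of all genes on an autosome or the X chromosome, at 0.17 in the Dnmt1 and 0.11 in the Dnmt3a,3b condition, and chromosome 11 was second in the latter at 0.09. With arrays centred on their medians the values in the Dnmt3a,3b condition were 0.05 and 0.02, and with normexp offset 50 chromosome 6 had 0.11 in the Dnmt1 condition. Between 100 and 125 Mb and between 125 and 150 Mb of chromosome 6 (mm7) the medians were 0.19 and 0.22 in the Dnmt1 condition and 0.20 in each window in the Dnmt3a,3b condition, and these windows held 7 and 6 of the 17 higher genes. Parent over wild type in 27G5 minus 27H10 had a median of 0.38 and 0.31 there, and of 0.29 on chromosome 11. It was 0.37 between 75 and 100 Mb too, where the responses had medians of 0.12 and 0.08 and 1 gene was higher. The 2 sets of values share the parent RNAs, and chromosome number in these cells was not measured here.

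**Figure D5:**
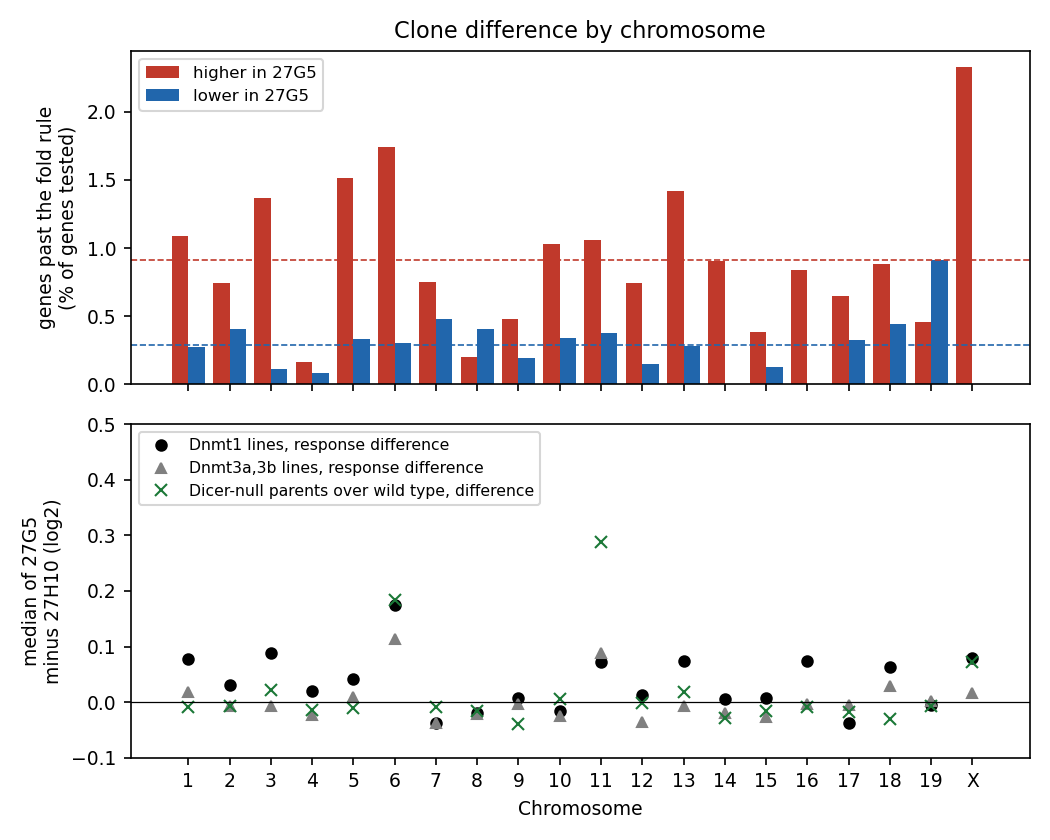
The upper bars give the percent of genes tested on each chromosome that met the fold rule with a higher (red) or lower (blue) response in 27G5, with dashed lines at the shares over all genes (0.913% and 0.291%). The lower points give each chromosome's median of 27G5 minus 27H10 (log2) for the responses in both conditions and for the Dicer-null parents over wild type, which is highest for chromosome 11 (0.29) and chromosome 6 (0.18).

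The parents themselves, on 4 further arrays against wild-type cells, give the starting levels. Over the 176 genes higher in 27G5 the parent of 27G5 minus that of 27H10 had a median of 0.02 and a range of -2.25 to 1.85. Over the 56 genes lower in 27G5 it had a median of 0.40 and a range of -0.90 to 3.19. Inhbe read 2.06 ± 0.38 (SD of 2 arrays) over wild type in the parent of 27G5 and 0.99 ± 0.21 in that of 27H10, Hspb6 1.95 ± 0.81 and 0.45 ± 0.13, and Cpe 0.56 ± 0.24 and -0.37 ± 0.07. For these genes the parent with the higher level had the lower response, whereas Aldh1l2 (1.36 ± 0.40 and 1.68 ± 1.00) and Prom2 (-0.12 ± 0.22 and -0.10 ± 0.03) started at levels closer than their spread. Other named genes went the other way. Nlrp4c (0.92 ± 0.67 and -0.40 ± 0.35), Spic (2.72 ± 0.51 and 1.79 ± 0.34) and Scml2 (1.00 ± 0.09 and 0.30 ± 0.24) had the higher parent and the higher response in 27G5. In Cyp39a1 (-0.40 ± 0.29 and 0.07 ± 0.15) both were lower in 27G5. The same parent RNAs stand under the responses, so these values are given side by side without a test.

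The fold rule asked for both conditions, and many more genes reached its size in at least 1 of them. In the Dnmt1-labelled lines 1361 genes had a mean clone difference of at least 1 in size, against 562 in the Dnmt3a,3b-labelled lines. Both counts include the 232 genes of the fold rule, and neither asks for the same sign in both dye orientations. Both conditions reached that size with opposite signs in 14 genes, which are also in both counts. Csf2rb2, a cytokine receptor subunit, had 1.89 in the Dnmt1 and -1.20 in the Dnmt3a,3b condition, and D130017N08Rik had 1.79 and -1.19. The 2 arrays of the Dnmt3a,3b-labelled line of 27G5 differed widely, at -2.29 and -0.52 for Csf2rb2 and -2.27 and -0.48 for D130017N08Rik. In both genes that line and the Dnmt1-labelled line of 27H10 were each well above background on only 1 of 2 arrays. The other genes named by this rule each had at least 1 RNA that was not above background: Angptl7, an angiopoietin-like protein, was positive in the Dnmt1 condition, and Neil2, a glycosylase of base excision repair, Hs3st3a1, a heparan sulfate sulfotransferase, and Sgpp2, a sphingosine phosphate phosphatase, were negative there. The difference between conditions was not tested.

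At the edge of the fold rule, B230362M20Rik and Nkx2-4, a homeobox gene, were just inside with a smaller condition mean of 1.00 each (B230362M20Rik was not above background in the lines of 27H10), and Myh7, a myosin heavy chain, and Grik4, a glutamate receptor subunit, were just outside at 0.995 and 0.991. A second Nkx2-4 probe gave -0.04, and it was the only 1 among 34 genes of the rule with another measured probe where that probe had the opposite sign. In 22 of the 34 every other probe had a clone difference of the same sign and at least 1 in size.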

How the data were processed

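Two-colour Agilent arrays of 6 RNAs (2 parents, 4 lines) were read from the scanner files, whose channel intensity values and log10 ratios the authors deposited, per the file headers. The main values are the log2 ratios of the value table the authors deposited, line over parent; set against the scanner log10 ratios they were already turned for the dye swap and were not centred (column medians -0.14 to 0.17). Probes were kept where at least 1 RNA was well above background on all its arrays and no array carried only outlier-flagged spots (27654 of 41174), and the brightest probe stood for a gene; 22951 probes were named through RefSeq accessions and the rest kept the design's name. The dye swaps were averaged and limma 3.58.1 (R 4.3.3) was fitted with clone and condition as terms on 4 ratios, which leaves 1 residual degree of freedom and 8.14 prior ones; it was tested on simulated data. The number of arrays limits the precision. Bounds ("at least") use normalised channel signals (normexp, loess, Aquantile). The brighter RNA was set against the lowest signal well above background or, where higher, against the dim RNA's own signal. Such signals are open to dye bias, which the swaps balance. Genes named are: the methyltransferases and Dicer1; the 12 highest and lowest clone differences with every RNA measured, and the 6 highest and lowest of the others; up to 4 members of each list; the 3 largest contrasts each way between conditions; and 2 genes on each side of the threshold. One result among these is not reported here. The members, lists and rules were chosen with earlier results of these data known. Comparisons of promoter content over the fold-rule genes were void, since 143 of the 232 had a promoter sequence.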

Additional observations from a re-analysis of the deposited data

Results flagged for a closer look

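The clone term of limma tests the difference between the 2 clones' responses. It passed an adjusted p of 0.05 for 45 of the 73 genes named by the rules above. Over all genes tested, 1.04% were called higher and 0.332% lower in 27G5. Many of the 73 were named for a large clone difference, which favours the call. Each of the 45 is given here by its clone difference (27G5 minus 27H10, log2). Higher responses in 27G5 were found for Klra22 (2.75), 4930502E18Rik (2.57), Nlrp4c (2.48), BC053393 (2.41), Abi3bp (2.36), Adamts3 (2.33), Ctsq (2.30), Cxcl5 (2.27), Scml2 (2.17). The next were Krt28 (2.10), Cxcl11 (2.10), A2m (2.01), 1700013H16Rik (1.98), Nckap5 (1.98), Bhlhe23 (1.91), Trim36 (1.88), Rprm (1.87), Spic (1.83). The smallest of this direction were Cdx2 (1.69), Asz1 (1.66), Dkk1 (1.47), Wnt3 (1.38), Msx2 (1.33), B230362M20Rik (1.21), Myh7 (1.14). Lower responses in 27G5 were found for Fgf21 (-2.64), Tmem154 (-2.19), Inhbe (-2.17), Chl1 (-2.07), Lgals12 (-1.94), Cdh13 (-1.94), C230043N17Rik (-1.93), Nupr1 (-1.91), Pkd1l3 (-1.91), Aldh1l2 (-1.83). The others were Cpe (-1.65), Prl2b1 (-1.62), Gna14 (-1.59), Msln (-1.58), Prom2 (-1.57), Col26a1 (-1.56), Hspb6 (-1.54), Cyp39a1 (-1.54), Vldlr (-1.25), Grik4 (-1.14). The values of Klra22, BC053393, Abi3bp, Adamts3, Ctsq, Cxcl5, Cdx2, B230362M20Rik, Fgf21, Tmem154, Chl1, Lgals12, Pkd1l3 and Prl2b1 rest in part on RNAs not above background. Of these, Klra22, BC053393, Ctsq, Cxcl5, B230362M20Rik, Tmem154 and Prl2b1 were tested only through RNAs of the clone with the higher response. That favours their calls. All 45 lost the call with the normexp offset of 50 and in the fit of all 6 ratios. The latter counts a difference between the parents as spread, which can lower the calls. The clones were on different slides, so whether clone or slide moves with these values cannot be told apart. With 2 arrays per line and condition no group was large enough for a test of single outlying arrays.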

How the results depend on the processing

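Clone calls by limma (264: 200 higher, 64 lower in 27G5) numbered 0 (0 and 0) with normexp offset 50 and loess and 0 (0 and 0) in the fit of all 6 ratios, which counts a difference between the parents as spread. They were 542 (334 and 208) with arrays centred on their median, 1129 (721 and 408) with no filter on dim probes, 424 (242 and 182) with all RNAs above background on all arrays, 172 (133 and 39) with the mean over a gene's probes, and 571 (383 and 188) at an adjusted p under 0.10. Centring thus moved the share of higher calls by more than 10 percentage points. The scanner software's log ratio gave 314 (224 and 90). An alternative chosen after seeing the data, normexp with offset 1 and loess, gave 891 (555 and 336). Leaving out 1 dye orientation gave 129 to 181 calls (98 to 140 higher, 31 to 41 lower), the fewest without replicate 2. The fit of 8 arrays with a replicate block gave 1437 (765 and 672) but treats dye swaps as samples; same-numbered arrays share their dye orientation (correlation of deviations 0.76 and 0.83), and the numbers pair no cultures.

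The fold rule's 232 genes (176 and 56) became 44 (26 and 18) with normexp offset 50, 103 (71 and 32) with offset 1, 113 (78 and 35) with all RNAs above background on all arrays, 951 (566 and 385) at 1.5-fold and 7 (5 and 2) at 4-fold, and 205 to 331 (145 to 238 and 60 to 93) without 1 dye orientation. Of the 232, 209 were kept after centring and 227 with the scanner's log ratio. Signs turned only in genes not called: Dicer1 (0.001 with offset 50, 0.011 with offset 1), and, over the fits without 1 dye orientation, Dicer1 (-0.138 to 0.122), Dnmt3l (-0.449 to 0.166), Rpl6 (-0.38 to 0.077), Sgpp2 (-0.359 to 0.806) and Csf2rb2 (-0.158 to 0.855). The list median moved by over 1.5 times with normexp offset 50 for primitive endoderm markers (0.17 to 0.05), mesoderm markers (0.27 to 0.16), 2-cell-stage genes (0.19 to 0.02), imprinted genes (0.16 to 0.07), miR-290 cluster targets (0.06 to 0.03) and glycolysis genes (-0.05 to -0.09), and turned for matrix and fibroblast markers (0.03 to -0.03). Those of amino acid stress (-0.51) and p53 target genes (0.40) did not. Chromosome 11 in the Dnmt1 condition moved from 0.07 to 0.05. The cause of these changes was not tested. Of the 232 genes, 101 had at least 1 RNA that was not above background on any of its arrays, and the clone differences fitted for them rest in part on background readings.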
